A study of Mus musculus with 6 samples.

Results

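The genes that decide what becomes of pyruvate in a cell were examined in hearts of wild-type (WT) and *Pkm1*-KO mouse embryos. They are 10 genes in 4 families, taken by name from the 13809 genes of the deposited count table. The families are the lactate dehydrogenases (*Ldha* and *Ldhb*), the lactate transporters (*Slc16a1* and *Slc16a3*), the mitochondrial pyruvate carrier (*Mpc1* and *Mpc2*) and the pyruvate dehydrogenase kinases (*Pdk1*, *Pdk2*, *Pdk3* and *Pdk4*). All 10 were in the table and all 10 were tested.

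Pyruvate kinase makes pyruvate in the last step of glycolysis, and *Pkm* gives rise to its PKM1 and PKM2 isoforms by alternative splicing. Pyruvate is either turned into lactate by lactate dehydrogenase and carried out of the cell with a proton, or carried into the mitochondria and oxidised to acetyl-CoA by the pyruvate dehydrogenase complex. The pyruvate dehydrogenase kinases phosphorylate that complex and switch it off. The heart before birth relies on glucose and lactate, and it turns to fatty acid oxidation after birth.

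RNA-seq was done on ribosomal RNA-depleted total RNA from 3 WT and 3 *Pkm1*-KO hearts at embryonic day 18.5 (E18.5), given as heart in the labels and as ventricular tissue in the study's text. The KO embryos were homozygous for a deletion made with CRISPR/Cas9 in the exon used only by *Pkm1*, which is carried in the germline and so is present in every tissue and not only in cardiomyocytes. The line was made in BDF1 zygotes, and the strain and litter of each sequenced embryo were not given in the sources used here, nor whether hearts were pooled. The labels named no other allele and no treatment for either genotype, and p-values here measure only the spread between these libraries.

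The columns carry no replicate number, and the libraries are called by letter, as WT a, b and c and KO a, b and c. The WT libraries held 15597756 to 19875546 counts and the KO libraries 15567624 to 18577404. Levels are given in CPM (counts scaled to library size by edgeR's TMM method). Before TMM scaling, 3 counts corresponded to 0.151 to 0.193 CPM by library totals, a limit that covers counting error only. WT c stood apart from the other WT libraries: counts of replicate pairs differed by 3.24 and 3.76 times the sampling variance for the pairs with WT c, and by 1.56 to 1.88 times for the other pairs of the same genotype. Genes with under 1500 bases of exon were higher in WT c, by a median of 0.048 on the log2 scale. *Pkm* fell from 1318 ± 41.1 CPM (SD, n = 3) in WT to 542 ± 10.1 CPM (SD, n = 3) in KO, and counts per gene do not separate its isoforms. *Xist*, the transcript of the inactive X chromosome, was at 5.26 ± 0.50 CPM in WT hearts and 2285 ± 47.6 CPM in KO hearts (SD, n = 3), and *Ddx3y*, *Uty*, *Eif2s3y* and *Kdm5d* on the Y chromosome had 0 counts in every KO library. Sex and genotype therefore cannot be told apart in any comparison below. All 10 cardiomyocyte markers were abundant, with a summed level of 140012 to 143846 CPM in WT and 132590 to 133867 CPM in KO. Of these markers 8 fell and 2 rose (*Myh7* and *Actc1*, by 0.049 and 0.056 on the log2 scale), against 15.7% and 14.6% of all genes. The summed level of 6 atrial markers was 595 to 601 CPM in WT and 1006 to 1030 CPM in KO, with none of them at 0. Only *Nppa*, *Myl4* and *Myl7* among these 6 were called higher (14.6% of all genes), while *Nr2f1*, *Nr2f2* and *Stard10* were not called, at log2 fold changes of -0.23, 0.059 and -0.086. Fibroblast markers summed to 3946 to 3992 CPM in WT libraries and 3677 to 3746 CPM in KO libraries, with 4 of 8 called lower (15.7% of all genes), and the endothelial sum was 1226 to 1230 CPM against 1197 to 1214 CPM. The summed levels of immune, smooth muscle and erythroid markers overlapped between the genotypes, and those of 5 epicardial markers were 135 to 138 and 145 to 157 CPM. Sums hide single genes: 3 of 11 immune markers were called lower, and 1 higher and 1 lower of 4 smooth muscle and of 4 erythroid markers. Of 8 endothelial markers 1 was called higher and 3 lower, and of 5 epicardial markers 2 were called higher (14.6% and 15.7% of all genes). The globin genes of the erythroid list were not analysed here. In whole tissue, fewer cells of a type and less RNA per cell cannot be told apart.

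The stretches upstream of the start sites are shown for *Ldha* and *Slc16a3*, the members called higher in KO, and for *Mpc1* and *Pdk4*, the members with the largest falls. They are RefSeq sequences of GRCm38.p6, read 5′ to 3′ on the strand of the gene, and are limited to bases outside annotated exons within 250 bases of the RefSeq start. Capitals mark CCAAT boxes (CCAAT, the letters known to be bound by the factor NF-Y) and the hypoxia response cores ACGTG and GCGTG (the letters known to be bound by HIF-1), on either strand. A core ACGTG can overlap the E-box CACGTG, which is known to be bound by MYC and related factors.
Ldha (chr7:46845554-46845803, plus strand): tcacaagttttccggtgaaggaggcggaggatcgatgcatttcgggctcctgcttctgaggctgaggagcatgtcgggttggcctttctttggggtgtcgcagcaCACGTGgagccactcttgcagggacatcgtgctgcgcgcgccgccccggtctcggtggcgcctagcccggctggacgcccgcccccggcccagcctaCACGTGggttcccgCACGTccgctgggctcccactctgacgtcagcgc
Slc16a3 (chr11:120948817-120949052, plus strand): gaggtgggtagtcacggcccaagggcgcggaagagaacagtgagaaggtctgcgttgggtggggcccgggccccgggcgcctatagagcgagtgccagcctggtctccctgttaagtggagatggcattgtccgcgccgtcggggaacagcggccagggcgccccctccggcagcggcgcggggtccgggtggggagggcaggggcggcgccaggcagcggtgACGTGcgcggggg
Mpc1 (chr17:8283537-8283761, plus strand): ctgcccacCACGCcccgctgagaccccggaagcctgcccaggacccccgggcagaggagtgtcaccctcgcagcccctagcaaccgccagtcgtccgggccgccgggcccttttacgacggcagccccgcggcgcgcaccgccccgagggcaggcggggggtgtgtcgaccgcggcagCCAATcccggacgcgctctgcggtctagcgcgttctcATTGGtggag
Pdk4 (chr6:5496310-5496528, minus strand): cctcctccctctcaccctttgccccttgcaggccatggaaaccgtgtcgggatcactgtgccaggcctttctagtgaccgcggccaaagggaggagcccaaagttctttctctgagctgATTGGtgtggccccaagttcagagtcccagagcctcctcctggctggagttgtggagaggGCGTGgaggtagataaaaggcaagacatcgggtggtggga

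*Ldha* held the E-box CACGTG at positions -145 and -48 from its start and a further ACGTG core at position -34. *Slc16a3* held ACGTG at positions -27 and -14, of which the second lies in an annotated exon and is not shown. *Mpc1* held CCAAT boxes at positions -72 and -35 and a GCGTG core at position -242, and *Pdk4* held a CCAAT box at position -131 and a GCGTG core at position -71. Over the 250 bases before the RefSeq start, CCAAT was found on either strand in 6 of 10 members (*Ldhb*, *Mpc1*, *Mpc2*, *Pdk2*, *Pdk3* and *Pdk4*) and in 33.8% of 32851 promoters. The *Mpc2* window is counted throughout, though it lies wholly in annotated exons and its start is 223 bases from that of the main GENCODE transcript. *Ldha*, *Mpc1*, *Pdk1* and *Pdk2* had 2 RefSeq windows each, of which the one nearest the main GENCODE start was used. ACGTG was found in 5 of 10 members (*Ldha*, *Slc16a1*, *Slc16a3*, *Pdk2* and *Pdk3*) and in 16.6% of promoters, GCGTG in 7 of 10 and in 28.2%, and CACGTG in 3 of 10 (*Ldha*, *Slc16a1* and *Pdk2*) and in 6.02%. The GC box GGGCGG was found in 7 of 10 members and in 32.7% of promoters. The glucocorticoid receptor half-site AGAACA was found in *Slc16a3* alone among the members and in 16.1% of promoters, and the FOXO element TGTTTAC in 0 of 10 members and in 3.17%. The 250-base windows of the members held 56.4% to 76.4% G and C, against a median of 52.4% over all promoters, and the part of base composition in these counts was not tested. These are matches of letters only.

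All genes were tested together with the quasi-likelihood test of edgeR, with p adjusted by Benjamini-Hochberg, and a gene was called where this adjusted p was under 0.05. By this test 2 of the 10 members rose in KO hearts (*Ldha* and *Slc16a3*), 4 fell (*Ldhb*, *Mpc1*, *Pdk2* and *Pdk4*) and 4 were not called. Over all 13804 genes tested, 30.3% were called, 14.6% higher and 15.7% lower. None of the 10 members was both called and changed by at least 1.5-fold, against 6.19% of all genes, and the nearest was *Slc16a3* at 1.49-fold. The 3 WT and 3 KO libraries did not overlap for 9 of the 10 members, 5 of them higher and 4 lower in KO, against 42.4% of all genes (21.0% higher and 21.4% lower). The median log2 fold change was 0.026 over the members and 0.0017 over all genes tested. Every family held at least 1 member that was called and at least 1 that was either not called or called in the opposite direction.

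**Figure D1:**
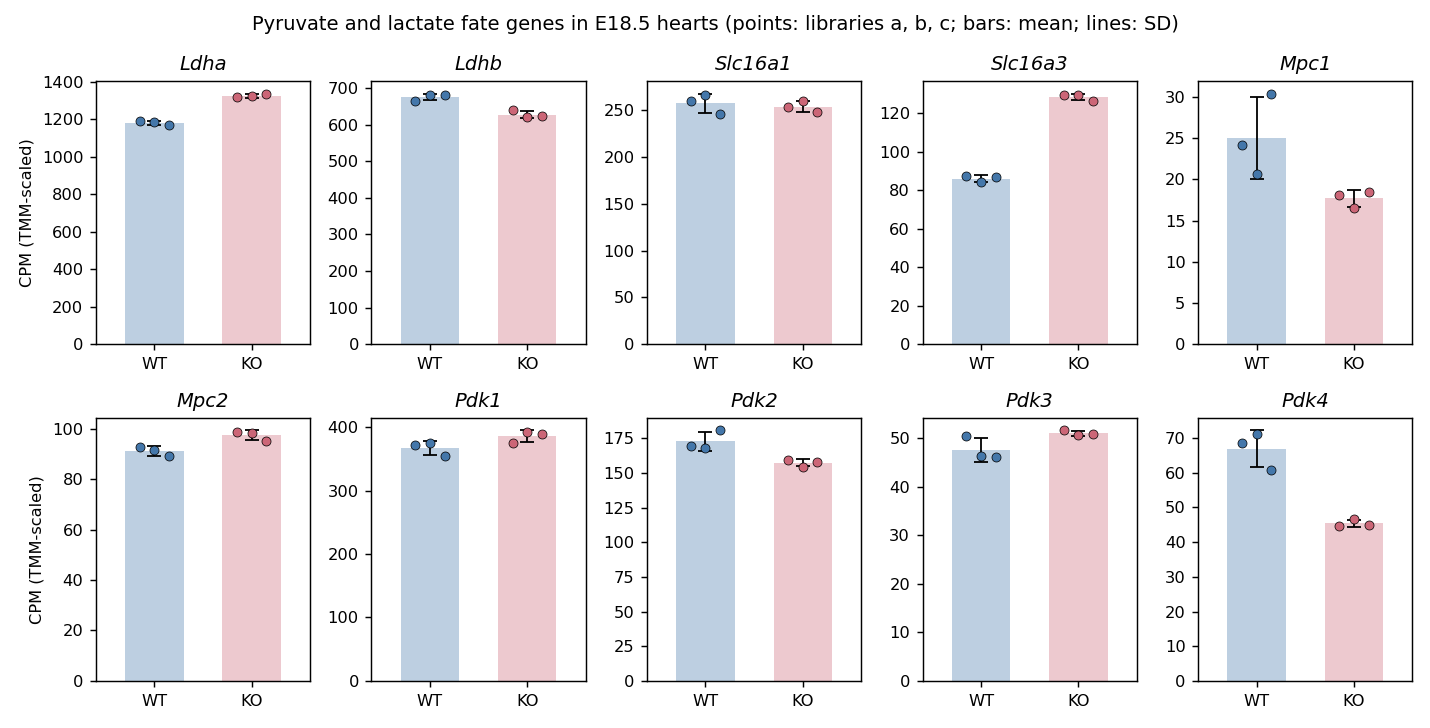
Level of each of the 10 genes in CPM (TMM-scaled, linear axes from 0, 1 panel per gene) in the WT and KO libraries, with points for libraries, bars for means and lines for the SD (n = 3). *Slc16a3* lay at 84.2 to 87.3 CPM in WT and 127 to 129.8 CPM in KO, while *Pdk4* lay at 60.9 to 71.1 CPM in WT and 44.7 to 46.7 CPM in KO.

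The lactate dehydrogenases moved in opposite directions. *Ldha* encodes the LDH-A (muscle) subunit, which favours the making of lactate, and lies at chr7:46841475-46855627 on the plus strand (GRCm38, as for all positions here). It was at 1193, 1184 and 1170.4 CPM in WT a, b and c and at 1318, 1325 and 1338 CPM in KO a, b and c. Every KO library was above every WT library. *Ldha* rose from 1183 ± 11.5 to 1327 ± 10.4 CPM (SD, n = 3), a log2 fold change of 0.17 (95% interval 0.12 to 0.21, edgeR adjusted p = 2.85e-06), or 12.2%. The difference was small, but it was more than 10 times the SD of either group.

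*Ldhb* encodes the LDH-B (heart) subunit, which favours the use of lactate, and lies at chr6:142490249-142507957 on the minus strand. It was at 666, 682 and 680.4 CPM in WT a, b and c and at 639, 620.4 and 623 CPM in KO a, b and c. The groups did not overlap, and KO libraries were the lower ones. *Ldhb* fell from 676 ± 9.02 to 627 ± 10.1 CPM (SD, n = 3), with a log2 fold change of -0.11 (95% interval -0.16 to -0.054, edgeR adjusted p = 0.00256). Scaling by library totals alone ended this call (-0.059, adjusted p = 0.0793). Of the 50-base stretches of their transcripts, 9.26% in *Ldha* and 21.0% in *Ldhb* also occurred in other annotated genes (the most in *Gm5452* and *Ldha-ps2* for *Ldha*). Some of their reads may therefore be of uncertain origin, which was not tested.

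The ratio within a library does not depend on how libraries are scaled. The log2 ratio of *Ldha* to *Ldhb* counts was 0.84, 0.80 and 0.78 in WT a, b and c and 1.04, 1.09 and 1.10 in KO a, b and c. It was 1.21-fold higher in KO, a difference of 0.27, and the groups did not overlap (exact two-sided permutation test p = 0.1, the smallest that 3 against 3 libraries allow, and 0.1 after adjustment over 6 ratios). Per kb of exon, *Ldha* made up 54.6 ± 0.537% of the family's level in WT and 59.3 ± 0.537% in KO (SD, n = 3). The summed level of both genes was 1142 ± 4.64 CPM per kb in WT and 1181 ± 5.52 CPM per kb in KO (SD, n = 3).

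**Figure D2:**
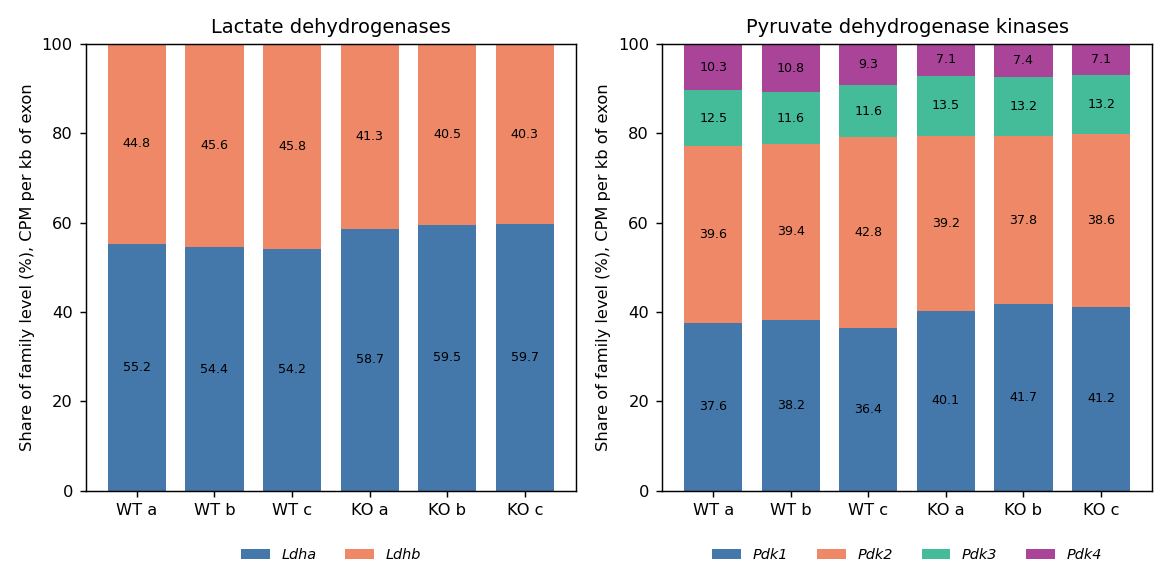
Share (%) of each gene in the summed level of its family, in CPM per kb of exon, for each WT and KO library, with lactate dehydrogenases on the left and pyruvate dehydrogenase kinases on the right. *Ldha* took 54.2% to 55.2% of its family in WT and 58.7% to 59.7% in KO, and *Pdk4* took 9.29% to 10.8% of its family in WT and 7.05% to 7.37% in KO.

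Of the lactate transporters, *Slc16a3* rose and *Slc16a1* was not called. *Slc16a3* encodes MCT4, a low-affinity carrier known for lactate export from glycolytic cells, and lies at chr11:120948480-120960868 on the plus strand. It was at 87.3, 84.2 and 86.9 CPM in WT a, b and c and at 129, 129.8 and 127 CPM in KO a, b and c. The gap between the groups was far wider than the spread within either. *Slc16a3* rose from 86.1 ± 1.70 to 129 ± 1.76 CPM (SD, n = 3), the largest rise among the members, with a log2 fold change of 0.58 (95% interval 0.50 to 0.66, edgeR adjusted p = 6.23e-12). It stayed between 0.56 and 0.63 under all 17 alternatives.

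*Slc16a1* encodes MCT1, a carrier of higher affinity that works in both directions, and lies at chr3:104638668-104658462 on the plus strand. It was at 260.2, 266 and 246 CPM in WT a, b and c and at 253, 260.0 and 248 CPM in KO a, b and c. It was the only member whose groups overlapped. The means were 257 ± 10.6 and 254 ± 5.95 CPM (SD, n = 3), with a log2 fold change of -0.021 (95% interval -0.091 to 0.049, edgeR adjusted p = 0.688). The log2 ratio of *Slc16a1* to *Slc16a3* counts was 1.58 ± 0.0807 in WT and 0.98 ± 0.0181 in KO (SD, n = 3), a difference of -0.60 with no overlap (exact permutation test p = 0.1, adjusted 0.1). Per kb of exon, MCT1 transcripts stayed the more abundant in both genotypes, at 58.1 ± 2.39 CPM per kb against 19.4 ± 0.382 for *Slc16a3* in WT and at 57.3 ± 1.34 against 28.9 ± 0.397 in KO (SD, n = 3).

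Of 9 further lactate genes, 5 were tested. By edgeR's quasi-likelihood test 0 rose (1 at an unadjusted p under 0.05, and 0 by DESeq2) and 1 fell, against 14.6% and 15.7% of all genes. *Ldhd*, a mitochondrial dehydrogenase of D-lactate, was at 4.40, 3.47 and 4.27 CPM in WT a, b and c and at 2.60, 3.03 and 2.36 CPM in KO a, b and c. It fell by 0.60 on the log2 scale (edgeR adjusted p = 0.0128), and this call was lost without WT a and without KO c. *Bsg*, the chaperone that brings MCT1 and MCT4 to the membrane, was at 394 ± 24.4 CPM in WT hearts and 405 ± 7.68 CPM in KO hearts (SD, n = 3, adjusted p = 0.396). *Slc16a7*, *Slc16a8* and *Emb* were below 10 CPM in every library and were not called, while *Ldhc*, *Slc5a8*, *Slc5a12* and the lactate receptor gene *Hcar1* were not analysed here.

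The subunits of the mitochondrial pyruvate carrier, which form a heterodimer in the inner membrane, differed in their response. *Mpc1* lies at chr17:8282904-8297661 on the plus strand, and was at 24.2, 20.6 and 30.4 CPM in WT a, b and c and at 18.1, 16.5 and 18.5 CPM in KO a, b and c. The WT libraries were spread widely, and the lowest of them was still above the highest KO library. *Mpc1* fell from 25.1 ± 4.96 to 17.7 ± 1.02 CPM (SD, n = 3), with a log2 fold change of -0.48 (95% interval -0.69 to -0.28, edgeR adjusted p = 0.000508). Without WT c, the library in which short genes were high and which held the top value, the log2 fold change was -0.33 (adjusted p = 0.00133). *Mpc1* has 1470 bases of exon and so is among the short genes, as are *Mpc2* and *Ldhb* by the exon lengths used here.

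Other genes share sequence with *Mpc1*: 26.3% of its 50-base stretches also occurred elsewhere, in the antisense gene *4930506C21Rik* and in the pseudogene *Mpc1-ps*. *4930506C21Rik* overlaps 480 bases of *Mpc1* exon, and whether counting used strand was not given in the sources used here. It was at 4.99 ± 0.667 CPM in WT hearts and 4.63 ± 0.431 CPM in KO hearts (SD, n = 3, edgeR adjusted p = 0.605). The part of these genes in the *Mpc1* value was not tested.

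*Mpc2*, at chr1:165460637-165481214 on the plus strand, was at 93.0, 91.7 and 89.2 CPM in WT a, b and c and at 98.7, 98.5 and 95.2 CPM in KO a, b and c. The groups did not overlap, with KO above WT, but the call was not made. The means were 91.3 ± 1.94 and 97.4 ± 1.98 CPM (SD, n = 3), with a log2 fold change of 0.093 (95% interval 0.0089 to 0.18 for this gene alone, edgeR adjusted p = 0.0875). The log2 ratio of *Mpc1* to *Mpc2* counts was -1.94, -2.15 and -1.55 in WT a, b and c and -2.45, -2.57 and -2.37 in KO a, b and c. The ratio was 0.670 times as high in KO, with no overlap (exact permutation test p = 0.1, adjusted 0.1). With 1 library left out in turn, the same test gave p from 0.1 to 0.2.

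Of the pyruvate dehydrogenase kinases, *Pdk4* and *Pdk2* fell. *Pdk4*, the kinase known for its induction by fasting, fatty acids and glucocorticoids, lies at chr6:5483351-5496309 on the minus strand. It was at 68.6, 71.1 and 60.9 CPM in WT a, b and c and at 44.7, 46.7 and 44.9 CPM in KO a, b and c. The KO libraries were close together and well below every WT library. *Pdk4* fell from 66.9 ± 5.33 to 45.4 ± 1.08 CPM (SD, n = 3), with a log2 fold change of -0.56 (95% interval -0.68 to -0.45, edgeR adjusted p = 1.32e-08). It stayed between -0.63 and -0.52 under all 17 alternatives.

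*Pdk2*, the widely expressed kinase of the resting heart, lies at chr11:95026258-95041354 on the minus strand. It was at 169, 168 and 181 CPM in WT a, b and c and at 159, 154 and 158 CPM in KO a, b and c. WT c was the highest, and no KO library reached the lowest WT library. *Pdk2* fell from 173 ± 7.05 to 157 ± 2.55 CPM (SD, n = 3), with a log2 fold change of -0.13 (95% interval -0.21 to -0.058, edgeR adjusted p = 0.00694). Scaling by library totals alone ended this call (-0.086, adjusted p = 0.0711).

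The other two kinases were not called. *Pdk1*, a kinase known to be induced by HIF-1, lies at chr2:71873224-71903858 on the plus strand and was at 372, 375 and 355 CPM in WT a, b and c and at 376, 393 and 389.9 CPM in KO a, b and c. The groups were separated by less than 1 CPM, between WT b and KO a. The means were 367 ± 10.9 and 386 ± 9.12 CPM (SD, n = 3), with a log2 fold change of 0.072 (95% interval 0.0092 to 0.14 for this gene alone, edgeR adjusted p = 0.0763), and without WT c it was 0.047 (adjusted p = 0.164). *Pdk3*, at chrX:93764607-93832201 on the minus strand, was at 50.4, 46.4 and 46.1 CPM in WT a, b and c and at 51.7, 50.6 and 50.9 CPM in KO a, b and c. It is the only member on the X chromosome, and its groups did not overlap, with WT a close below the KO libraries. The means were 47.6 ± 2.41 and 51.1 ± 0.550 CPM (SD, n = 3), with a log2 fold change of 0.10 (95% interval -0.0086 to 0.21, edgeR adjusted p = 0.157). Of 477 X-linked genes tested, 48 were called higher and 72 lower in KO, beside 1959 and 2090 of 13299 autosomal genes and 14.6% and 15.7% of all genes.

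Within the kinase family, the share of *Pdk4* in the summed level per kb of exon was 10.1 ± 0.764% in WT and 7.18 ± 0.169% in KO (SD, n = 3). The share of *Pdk1* was 37.4 ± 0.936% in WT and 41.0 ± 0.788% in KO, that of *Pdk2* was 40.6 ± 1.89% and 38.5 ± 0.717%, and that of *Pdk3* was 11.9 ± 0.530% and 13.3 ± 0.205% (SD, n = 3). *Pdk2* led the family per kb in WT (76.8 ± 3.14 CPM per kb against 70.8 ± 2.11 for *Pdk1*), and *Pdk1* led it in KO (74.5 ± 1.76 against 70.0 ± 1.14 CPM per kb), with no overlap between both genes in either genotype. The lead of *Pdk2* in WT depends on the exon lengths used, 5185 bases for *Pdk1* and 2246 for *Pdk2*. In CPM, *Pdk1* was above *Pdk2* in both genotypes (367 against 173 in WT and 386 against 157 in KO). The log2 ratio of *Pdk2* to *Pdk1* counts was -1.09 ± 0.102 in WT and -1.30 ± 0.0542 in KO (SD, n = 3). That of *Pdk4* to *Pdk1* was -2.46 ± 0.0742 in WT and -3.09 ± 0.0275 in KO, and that of *Pdk4* to *Pdk2* was -1.37 ± 0.175 in WT and -1.79 ± 0.0577 in KO (SD, n = 3). None of these 3 ratios overlapped between the groups (exact permutation test p = 0.1 for each, adjusted 0.1). They share genes with one another and so are not separate observations. With 1 library left out in turn, the same test gave p from 0.1 to 0.2 for *Pdk4* to *Pdk2*. The summed level of the 4 kinases was 189 ± 1.27 CPM per kb in WT and 182 ± 1.02 CPM per kb in KO (SD, n = 3).

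Ordered by level per kb of exon, the lactate dehydrogenases stood far above the other members in both genotypes. In WT the order was *Ldha* (624 CPM per kb), *Ldhb* (518), *Mpc2* (89.0), *Pdk2* (76.8), *Pdk1* (70.8), *Slc16a1* (58.1), *Pdk3* (22.5), *Slc16a3* (19.4), *Pdk4* (19.2) and *Mpc1* (17.0). This order depends on the exon lengths used. For *Mpc2* the length was 1025 bases, while all its annotated transcripts held 7380 distinct 50-base stretches, so its place is uncertain. In CPM *Mpc2* (91.3 in WT) was below *Pdk1* (367), *Slc16a1* (257) and *Pdk2* (173). The libraries of *Slc16a3* and *Pdk4* overlapped, as did those of *Pdk4* and *Mpc1*, and no other neighbours in this order did. In KO *Pdk1* stood above *Pdk2* and *Slc16a3* (28.9 CPM per kb) above *Pdk3* (24.1 CPM per kb), while *Pdk4* (13.0 CPM per kb) and *Mpc1* (12.0 CPM per kb) again came last. No neighbours overlapped in KO.

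The pyruvate dehydrogenase complex, the target of the kinases, was measured through 8 genes of the complex and of the phosphatases that switch it back on. By edgeR's quasi-likelihood test 0 rose (0 at an unadjusted p under 0.05 and by DESeq2) and 4 fell (14.6% and 15.7% of all genes), with a median log2 fold change of -0.090 over the 8. Scaling by library totals alone left 2 that fell. *Pdha1*, the X-linked E1 alpha subunit that the kinases phosphorylate, was at 468, 461 and 470.2 CPM in WT a, b and c and at 434, 428 and 431 CPM in KO a, b and c. It fell by 0.11 on the log2 scale (edgeR adjusted p = 0.0026), and its groups did not overlap. *Pdhb*, the E1 beta subunit, fell from 403 ± 4.53 to 365 ± 7.07 CPM (SD, n = 3, log2 fold change -0.14, edgeR adjusted p = 0.000456).

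The catalytic phosphatase genes *Pdp1* and *Pdp2* fell as well. *Pdp1* was at 36.8 ± 1.12 CPM in WT hearts and 32.3 ± 0.123 CPM in KO hearts (SD, n = 3, log2 fold change -0.19, edgeR adjusted p = 0.014). *Pdp2* was at 15.1, 17.3 and 15.2 CPM in WT a, b and c and at 12.5, 12.8 and 12.6 CPM in KO a, b and c, with a log2 fold change of -0.34 (edgeR adjusted p = 0.00472). Kinase and phosphatase transcripts were thus both lower for *Pdk2*, *Pdk4*, *Pdp1* and *Pdp2*. *Dlat*, *Dld*, *Pdhx* and the regulatory subunit gene *Pdpr* were not called, with log2 fold changes from -0.068 to -0.028.

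**Figure D3:**
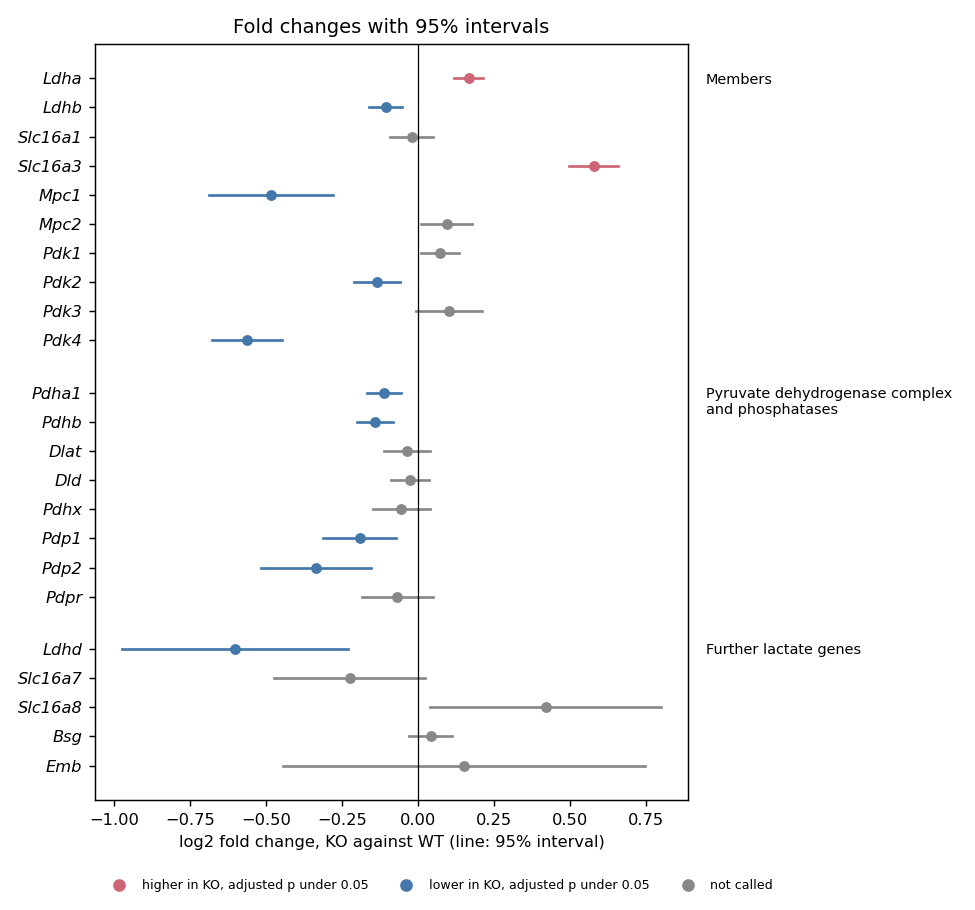
Log2 fold change of KO against WT (horizontal axis) with its 95% interval (lines) for the 10 members, the pyruvate dehydrogenase complex with its phosphatases and the further lactate genes, red for called higher, blue for called lower and grey for not called. The largest changes among the members were those of *Slc16a3* (0.58), *Pdk4* (-0.56) and *Mpc1* (-0.48), and the interval of *Slc16a1* (-0.021) spans 0.

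Known HIF-1 targets other than the members were examined beside *Ldha*, *Slc16a3* and *Pdk1*, which are HIF-1 targets themselves. This list, like all gene lists here, was chosen with earlier results of these data known, so its counts are a description only. Of 17 such genes, 16 rose and 0 fell by edgeR's quasi-likelihood test (0 fell at an unadjusted p under 0.05 and by DESeq2), against 14.6% and 15.7% of all genes, with a median log2 fold change of 0.45 (0.0017 over all genes tested). The 3 with the smallest adjusted p were *Vegfa*, the angiogenic growth factor (363 ± 9.32 to 536 ± 4.28 CPM, SD, n = 3, log2 fold change 0.56, edgeR adjusted p = 1.21e-14), *Slc2a1*, the glucose carrier GLUT1 (0.68, adjusted p = 3.33e-13), and *Pfkfb3*, an activator of glycolysis (1.05, adjusted p = 1.72e-12). *Slc16a3* (0.58) lay above the median of this list, and *Ldha* (0.17) and *Pdk1* (0.072, not called) lay below it. The part of HIF-1 in the members' values was not tested.

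Among 17 factors known to act on the members, 4 rose and 3 fell (14.6% and 15.7% of all genes). *Ppara*, the fatty acid receptor known to induce *Pdk4*, was at 69.8, 68.4 and 66.8 CPM in WT a, b and c and at 92.3, 93.1 and 97.7 CPM in KO a, b and c, a rise of 0.47 on the log2 scale (edgeR adjusted p = 5.13e-09). *Foxo1*, which is also known to induce *Pdk4*, rose by 0.25 (adjusted p = 0.000927), and *Esrra*, an orphan receptor of mitochondrial genes, rose by 0.21 (adjusted p = 0.00135). The part of these or of the other factors of this list in the *Pdk4* value was not tested. *Hif1a*, named after its values were seen, was the fourth that rose, by 0.11 (246 ± 10.3 to 266 ± 11.4 CPM, SD, n = 3, adjusted p = 0.019).

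*Myc*, known to induce *Ldha* and *Slc16a1*, fell from 54.3 ± 2.46 to 23.3 ± 0.937 CPM (SD, n = 3, log2 fold change -1.22, edgeR adjusted p = 6.96e-15). *Ppargc1a*, the coactivator PGC-1 alpha that acts with ESRRA on mitochondrial genes, fell by 0.26 (adjusted p = 1.23e-07), and *Epas1*, which encodes HIF-2 alpha, fell by 0.27 (adjusted p = 1.08e-05). *Nr3c1*, the glucocorticoid receptor gene, was at 110 ± 6.18 CPM in WT hearts and 110 ± 4.23 CPM in KO hearts (SD, n = 3, adjusted p = 0.951). Neither *Ppard* nor *Pparg* was called.

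Further PPAR and fasting targets were examined beside *Pdk4*. Of 18 tested, 2 rose and 8 fell (14.6% and 15.7% of all genes), with a median log2 fold change of -0.11, and 5 fell when libraries were scaled by their totals alone. *Angptl4*, an inhibitor of lipoprotein lipase that HIF-1 also induces, rose from 3.34 ± 0.160 to 6.49 ± 0.0782 CPM (SD, n = 3, log2 fold change 0.96, edgeR adjusted p = 9.91e-06), and *Cpt1a*, which carries fatty acids into oxidation, rose by 0.15 (adjusted p = 0.00766). *Lpl*, lipoprotein lipase itself, fell from 839 ± 2.06 to 590.4 ± 4.77 CPM (SD, n = 3, log2 fold change -0.51, adjusted p = 5.85e-15). *Ucp2* fell by 0.55 (adjusted p = 2.71e-07) and *Fabp3*, the heart fatty acid binding protein, fell by 0.31 (adjusted p = 6.33e-06). The fall of *Pdk4* (-0.56) was thus of the size of those of *Ucp2* and *Lpl* and the opposite of that of *Angptl4*.

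Of 9 genes that glucocorticoids are known to induce, as they induce *Pdk4*, 0 rose by edgeR's quasi-likelihood test (0 at an unadjusted p under 0.05 and by DESeq2) and 6 fell (14.6% and 15.7% of all genes), with a median log2 fold change of -0.30. The 3 with the smallest adjusted p were *Per1* (251 ± 13.2 to 96.5 ± 0.882 CPM, SD, n = 3, log2 fold change -1.38, edgeR adjusted p = 1.63e-20), *Zbtb16* (-1.62, adjusted p = 3.29e-20) and *Klf9* (-1.66, adjusted p = 1.81e-16). The log2 fold change of *Pdk4* (-0.56) lay between those of these 3 and the median of the list. All 15 immediate early genes examined fell (15.7% of all genes), with a median log2 fold change of -2.47, and their summed level was 2323 to 2530 CPM in WT and 426 to 429 CPM in KO. The part of this difference, of the atrial and cardiomyocyte markers and of sex in the members' values was not tested.

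**Figure D4:**
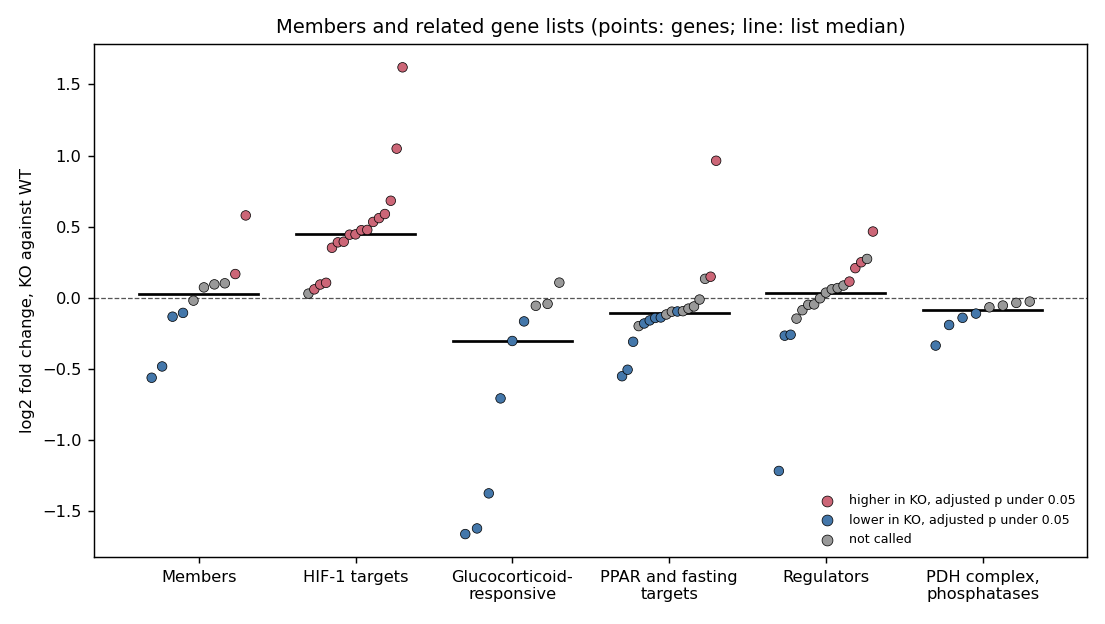
Log2 fold change of KO against WT (vertical axis) for each gene (points, red for called higher, blue for called lower, grey for not called) of the members, 4 lists of related genes or factors and the pyruvate dehydrogenase complex with its phosphatases, with a line at each list's median. The median was 0.026 for the members, 0.45 for the HIF-1 targets, -0.30 for the glucocorticoid-responsive genes and -0.11 for the PPAR and fasting targets.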

How the data were processed

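Total RNA from 3 WT and 3 *Pkm1*-KO hearts at E18.5 was depleted of ribosomal RNA (KAPA RiboErase and RNA HyperPrep kits) and sequenced. Per the submitters' processing notes, reads were trimmed with cutadapt 1.18, aligned with HISAT2 to mm10 and assembled with StringTie. The counting program and its strand setting were not given in the sources used here. The table the authors deposited gives raw counts for each gene symbol. Their own edgeR comparison, deposited beside these as log2 fold changes and average log2 CPM with p-values and false discovery rates, was not used. No other column held values per sample. Every gene had at least 59 counts over the 6 libraries.

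edgeR 4.0.16 under R 4.3.3 was used on the counts as deposited. Of the genes, 13804 were kept by filterByExpr and 5 left out, libraries were scaled by TMM, and genotype, with no other term, was tested by quasi-likelihood with p adjusted by Benjamini-Hochberg. CPM values are TMM-scaled, and a prior count of 2 entered log2 CPM. The SE and 95% intervals came from the same fit. Ratios of 2 members were tested by an exact two-sided permutation test over libraries. The tests were tried on simulated counts.

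Positions and exon lengths came from a GENCODE annotation of GRCm38, and promoters from RefSeq (GRCm38.p6, found for all 10 members). Exon length was that of the merged exons of the transcripts tagged basic, or of all transcripts where a gene had no such tag. Of the symbols, 13299 matched the annotation directly, 486 through RefSeq and 24 not. Plots used Python 3.11.15 and matplotlib 3.10.9.

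The members and gene lists were chosen with earlier results of these data known. All members were named, every called gene of the lists of lactate genes, pyruvate dehydrogenase, other pyruvate reactions and NADH shuttles, and the 3 called genes with the smallest adjusted p in each direction of the regulator, HIF-1, PPAR and glucocorticoid lists. A gene outside this rule is given only to complete a count or as a known partner of a member. The alternatives were RLE, upper-quartile and library-total scaling, TMM without the ribosomal RNA gene *Rn45s*, genes on X and Y left out, DESeq2 1.42.0, edgeR's exact test, limma 3.58.1 (voom), no filter, at least 10 counts in every library, each library left out in turn, and removal of a trend with exon length (loess span 0.5).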

Additional observations from a re-analysis of the deposited data

How the results depend on the processing

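Of the 10 members, *Ldha*, *Slc16a3*, *Mpc1* and *Pdk4* kept their direction and their call under all 17 alternatives, and *Ldhb* and *Pdk2* under all but library totals. Library totals alone moved the share of higher calls over all genes from 48.1% (2011 higher and 2168 lower) to 65.6% (2911 higher and 1527 lower) and moved the median log2 fold change over all tested genes to 0.049. Under library totals 5 members were called higher and 2 lower, with *Ldhb* at -0.0593 and *Pdk2* at -0.086 no longer called, *Mpc2* at 0.141, *Pdk1* at 0.12 and *Pdk3* at 0.149 now called, and *Slc16a1* at 0.0267, reversed and not called. Counts under library totals were 1 higher of the further lactate genes, 1 higher of the NADH shuttle genes, 2 lower of the pyruvate dehydrogenase list and 5 lower of the PPAR list. Upper-quartile scaling called 4 members higher, with *Mpc2* at 0.112 (adjusted p = 0.0405) and *Pdk1* at 0.0908 (adjusted p = 0.0248). Removal of the exon length trend, chosen after seeing the data, gave *Mpc2* 0.112872 (adjusted p = 0.0408). With 1 library left out in turn, 2 members were higher and 4 lower each time, and *Slc16a1* ranged from -0.0545 to 0.00242, the latter without WT b. The further lactate genes then had 0 to 2 called higher (2 without WT c) and 0 to 1 called lower, and the NADH shuttle and glucocorticoid lists had 0 to 1 called higher (1 without WT c).

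Over all genes, 1362 to 2911 were called higher and 1527 to 2317 lower among the alternatives, with DESeq2 calling 1362 and 1639. The causes of these shifts were not tested. The ratios of members do not depend on scaling, but 3 against 3 libraries cannot give an exact p below 0.1. No paired analysis was possible because no column names the replicate it holds. Summing a pair of WT libraries as 1 sample was not run, since no pair agreed within sampling noise. *Mpc1* was the shallowest member, with 262 to 463 counts a library.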

Other observations

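The cytosolic NADH shuttles, which return the NAD+ that lactate dehydrogenase otherwise regenerates, and the enzymes of the other pyruvate reactions were set beside the members. Of 9 shuttle genes, 0 were called higher (1 at an unadjusted p under 0.05, and 0 by DESeq2) and 2 lower by edgeR's quasi-likelihood test (14.6% and 15.7% of all genes). *Mdh2*, the mitochondrial malate dehydrogenase, fell from 613 ± 6.79 to 559.9 ± 8.60 CPM (SD, n = 3, log2 fold change -0.13, edgeR adjusted p = 0.000454), and *Got2*, the mitochondrial aspartate aminotransferase, fell from 585 ± 2.92 to 539 ± 1.23 CPM (SD, n = 3, log2 fold change -0.12, adjusted p = 0.00107). Their cytosolic partners were not called: *Mdh1* was at 1031 ± 68.7 CPM in WT hearts and 994 ± 21 CPM in KO hearts, and *Got1* was at 279 ± 9.42 CPM in WT hearts and 277 ± 3.26 CPM in KO hearts (SD, n = 3). *Gpd1*, of the glycerol phosphate shuttle, was at 10.7, 8.83 and 10.8 CPM in WT a, b and c and at 11.7, 12.3 and 11.7 CPM in KO a, b and c, without overlap and without a call (adjusted p = 0.0794).

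None of the 7 tested genes of the other pyruvate reactions was called by edgeR's quasi-likelihood test, with 0 at an unadjusted p under 0.05 and 0 by DESeq2, and with a median log2 fold change of 0.020. *Pcx*, pyruvate carboxylase, was at 30.8, 30.9 and 29.8 CPM in WT a, b and c and at 27.4, 27.5 and 29.1 CPM in KO a, b and c. These groups did not overlap, with KO below WT (log2 fold change -0.12, adjusted p = 0.144). *Pck1* and *Pklr* were not analysed here.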
